A study of Mus musculus with 4 samples.

Results

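The genes described here are 10 genes of insulin and insulin-like growth factor (IGF) receptor signalling, taken by symbol from the 39170 rows of the whole-series gene table: Igf1, Insr, Igf1r, Irs1, Irs2, Igfbp2, Igfbp3, Igfbp5, Igfbp6 and Igfbp7. Each symbol matched 1 row, and the status of all 10 was OK in every library. All cells were pancreatic islet cells of MIP-GFP C57BL/6 males, 6 to 8 weeks of age, in which the mouse insulin promoter drives green fluorescent protein. Insulin-positive cells were sorted into a gate low (Glut2L) or high (Glut2H) for Glut2, a glucose transporter whose gene is Slc2a2. Mice had received 200 mg/kg of streptozotocin (STZ), a beta cell toxin taken up through Glut2, or vehicle, and STZ-injected mice were diabetic 4 days later. The 4 groups (Glut2L STZ, Glut2H STZ, Glut2L control and Glut2H control) hold 1 library each. Each group had 3 mice per the labels, but no source used here says whether RNA was pooled. Without replicate libraries there is no spread and no test, and each difference is one between single libraries.

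Insulin and IGF1 bind the related receptor tyrosine kinases INSR and IGF1R, which phosphorylate the docking proteins IRS1 and IRS2. These recruit PI3-kinase, and AKT and mTOR then act on growth, survival and metabolism. IGF-binding proteins (IGFBPs) hold IGFs outside the cell and limit or prolong their access to IGF1R. In mouse islets the insulin and IGF1 receptors act on beta cell function, and IRS2 is known for its part in beta cell growth and survival.

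Promoter sequence is shown for 6 members, 3 of them higher in both libraries labelled Glut2L (Igf1r, Irs1 and Irs2) and 3 of them lower there (Igf1, Igfbp3 and Igfbp5), so that sequence can be set beside expression. RefSeq promoters on GRCm38.p6 matched 9 of the 10 members, with no entry used for Insr. Each sequence gives the 250 bases upstream of the RefSeq start, 5′ to 3′ on the gene's strand, for Igf1r (chr7:67952007-67952256, plus), Irs1 (chr1:82291440-82291689, minus), Irs2 (chr8:11008930-11009179, minus), Igf1 (chr10:87860861-87861110, plus), Igfbp3 (chr11:7213924-7214173, minus) and Igfbp5 (chr1:72874866-72875115, minus). Capitals mark the E-box CACGTG and the GC box GGGCGG, with the GC box also as its reverse complement CCGCCC.
Igf1r: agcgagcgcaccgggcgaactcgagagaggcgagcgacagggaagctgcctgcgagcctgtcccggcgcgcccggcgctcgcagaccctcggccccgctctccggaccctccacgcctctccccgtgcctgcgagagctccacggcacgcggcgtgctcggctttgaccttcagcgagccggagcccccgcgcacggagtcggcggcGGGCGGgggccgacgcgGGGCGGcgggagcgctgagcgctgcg
Irs1: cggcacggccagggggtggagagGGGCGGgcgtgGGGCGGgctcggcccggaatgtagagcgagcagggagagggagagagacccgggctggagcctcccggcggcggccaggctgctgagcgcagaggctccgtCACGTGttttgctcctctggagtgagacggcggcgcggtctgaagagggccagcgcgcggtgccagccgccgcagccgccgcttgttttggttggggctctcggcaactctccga
Irs2: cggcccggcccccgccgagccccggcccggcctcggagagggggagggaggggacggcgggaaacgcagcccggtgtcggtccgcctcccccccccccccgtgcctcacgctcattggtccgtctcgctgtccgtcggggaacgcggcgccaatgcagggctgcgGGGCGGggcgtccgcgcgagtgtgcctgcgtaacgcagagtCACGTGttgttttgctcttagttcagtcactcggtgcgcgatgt
Igf1: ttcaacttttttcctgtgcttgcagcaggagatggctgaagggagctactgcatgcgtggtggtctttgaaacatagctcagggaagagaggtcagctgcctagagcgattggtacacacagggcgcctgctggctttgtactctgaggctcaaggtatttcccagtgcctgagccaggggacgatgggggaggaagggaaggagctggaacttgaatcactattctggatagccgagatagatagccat
Igfbp3: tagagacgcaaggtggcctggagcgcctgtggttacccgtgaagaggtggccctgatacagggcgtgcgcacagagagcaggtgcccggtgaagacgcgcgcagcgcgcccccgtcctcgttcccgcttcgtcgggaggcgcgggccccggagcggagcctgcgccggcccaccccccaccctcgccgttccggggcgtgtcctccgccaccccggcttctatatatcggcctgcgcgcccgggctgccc
Igfbp5: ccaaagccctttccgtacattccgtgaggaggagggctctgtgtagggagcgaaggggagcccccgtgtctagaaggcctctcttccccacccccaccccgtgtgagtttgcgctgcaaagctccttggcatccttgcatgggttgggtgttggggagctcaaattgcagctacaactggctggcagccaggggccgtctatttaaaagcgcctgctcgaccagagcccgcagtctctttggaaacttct

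Searched on both strands, the E-box was in 6.02% and the GC box in 32.7% of all 32851 RefSeq promoter windows of this length. Irs1 and Irs2 each held 1 E-box, starting 115 and 44 bases upstream. Igf1r held 2 GC boxes, Irs1 held 2 and Irs2 held 1, while the windows of Igf1, Igfbp3, Igfbp5 and Igfbp6 held neither motif. The Igf1 window lies inside the gene as annotated, which starts at 87858265, so it precedes an internal start and not the 5′ end of the gene. An Igfbp2 window starting at 72825137 also lies inside its gene. Other windows need not adjoin the annotated start. That of Igf1r ends at 67952256 and its gene starts at 67952827, and that of Irs2 starts at 11008930 and its gene, on the minus strand, ends at 11008458. The window of Igfbp7, lower in both libraries labelled Glut2L, held 4 GC boxes, and 1 of the 2 windows of Igfbp2 held 3 GC boxes and 1 E-box, so GC boxes were found on both sides of the gate difference. The FoxO motif GTAAACA, present in 3.17% of all windows, was in none of the 10 windows of members. The TATA motif TATAAA, present in 12.4%, was in that of Igfbp6 only as its reverse complement TTTATA, starting 148 bases upstream. G and C made up 77.6% of the Igf1r window, 72.4% of that of Irs1 and 72.8% of that of Irs2, against 52.8% for Igf1, 73.2% for Igfbp3 and 58.8% for Igfbp5. A match of letters is a description of these windows and not a binding site.

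Levels are in FPKM, a fragment count divided by transcript length and by mapped fragments, so genes can be ordered by level; read depth is unknown. Log2 values are differences of log2(FPKM + 1), which understate the change of low genes. A gene is called higher or lower at a 2-fold difference on that scale, if it reached 1 FPKM in either library. Each value carries an interval deposited by the authors whose level is not stated; among the 29 of 40 member values at 1 FPKM or more its half-width ran between 57.1% and 124% of the value, with a median of 71.4%. Slc2a2 RNA did not follow the gate labels: it stood at 33.7 FPKM in the library labelled Glut2L and 10.8 in the library labelled Glut2H after STZ, and at 41.0 and 8.74 in the libraries so labelled from control mice. Each gate direction below is therefore one between libraries so labelled. The summed FPKM was 1562040 and 3428740 in the STZ libraries labelled Glut2L and Glut2H and 1654280 and 2935080 in the control libraries so labelled. The short predicted gene Gm20594 took 4.15%, 68.5%, 3.86% and 61.0% of these sums.

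The other cell types that a gate could hold were read from fixed marker lists, since IGFs and IGFBPs are also made outside beta cells. Macrophage and leukocyte markers, 15 genes, summed to 149 FPKM in the Glut2L and 3719 in the Glut2H library after STZ, and to 111 in the Glut2L and 3368 in the Glut2H library of control mice; of 14 measured, 13 were called lower in the library labelled Glut2L after STZ and 14 in control mice. Stromal markers, 14 genes, summed to 24.7 in the Glut2L and 818 in the Glut2H library after STZ and to 64.3 in the Glut2L and 957 in the Glut2H library of control mice, with 14 of 14 called lower in both pairs. Endothelial markers, 11 genes, summed to 19.4 in the Glut2L and 254 in the Glut2H library after STZ and to 39.5 in the Glut2L and 294 in the Glut2H library of control mice, with 9 of 10 called lower after STZ and 9 of 11 in control mice. Acinar markers, 10 genes, differed between the pairs: they summed to 334 in the Glut2L and 4128 in the Glut2H library after STZ and to 3057 in the Glut2L and 3840 in the Glut2H library of control mice, with 9 of 9 called lower after STZ (median log2 difference -4.24) and 0 of 9 in control mice (-0.43). Duct markers had 6 of 9 called higher and 2 lower after STZ and 4 of 8 higher and 2 lower in control mice, and alpha cell markers 2 of 6 higher and 1 lower after STZ and 1 of 6 in each direction in control mice. Delta and PP cell markers had 1 of 4 higher in each pair, Ppy after STZ and Rbp4 in control mice. Cd3e was listed at 0 in both Glut2L libraries, Fbln1 likewise, Des and Tie1 in the Glut2L STZ library, and Amy2a5 in all 4 libraries. Beta cell markers went the other way, with 9 of 10 called higher in the library labelled Glut2L after STZ and 10 of 10 in control mice. In bulk samples, fewer cells of a type and less RNA per cell cannot be told apart. The part of these cell types in the results below was not tested.

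The order of the members by level differed between the libraries labelled Glut2L and those labelled Glut2H. In both Glut2L libraries Igfbp7, Igf1r, Irs2 and Insr were the 4 highest members, in that order. In both Glut2H libraries Igfbp7, Igf1 and Igfbp3 led, and Insr was among the lowest. Igfbp7 and Igf1r stood at the percentiles 93.6 and 93.3 of all genes at 1 FPKM or more in the Glut2L STZ library, and Igf1 and Igfbp3 at 89.1 and 88.6 in the Glut2H STZ library. Between neighbours in the order, deposited intervals overlapped except between Igf1r and Irs2 in both Glut2L libraries and between Irs2 and Insr in the Glut2L control library. The other neighbours do not differ beyond those intervals.

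**Figure D1:**
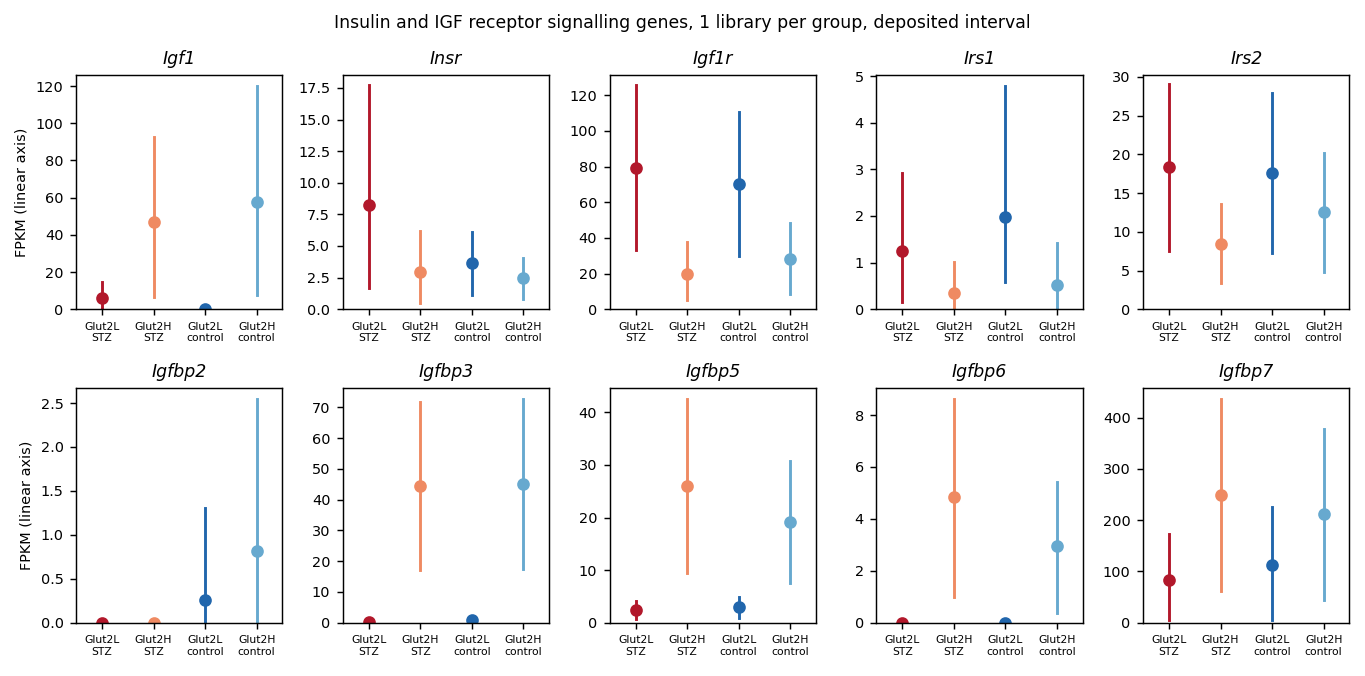
FPKM (linear vertical axis, its own range in each panel) of the 10 members in the 4 libraries; points are deposited values and bars the deposited intervals, with 1 library per group. Igf1r reached 79.3 and 70.3 FPKM in the libraries labelled Glut2L, and Igfbp3 stayed below 1 FPKM there against 44.5 and 44.9 in those labelled Glut2H.

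Igf1, the ligand of the group (ENSMUSG00000020053, GRCm38 chromosome 10, 87858265 to 87937042), was low in the libraries labelled Glut2L and high in those labelled Glut2H. It stood at 5.81 FPKM in the Glut2L and 46.7 in the Glut2H library after STZ, and at 0.294 in the Glut2L and 57.6 in the Glut2H library of control mice. The log2 difference was -2.81 after STZ, where the deposited intervals (0.0697 to 14.5 and 6.70 to 92.5) overlapped, and -5.50 in control mice, where they (0 to 1.75 and 7.81 to 120) did not. Igf1 also showed the greatest STZ difference of the members measured. In the libraries labelled Glut2L it was higher after STZ by 2.40, with overlapping intervals, and in those labelled Glut2H it differed by -0.29. The Glut2L difference was 3.91 with a pseudocount of 0.1 and 1.03 with a pseudocount of 5. Igf1 was called under both. Igf1 passed the filter in the Glut2L comparison only through the STZ library, where it was high. Igfbp3, at 0.0509 FPKM in the Glut2L STZ and 0.968 in the Glut2L control library, was below the filter there. The ratio of FPKM was 19.7 for Igf1 and 19.0 in the other direction for Igfbp3. Macrophage and leukocyte markers, as above, summed to 149 FPKM in the Glut2L STZ and 111 in the Glut2L control library, with 1 of 14 called higher, 1 called lower and a median log2 difference of 0.45, beside 0.00 for all genes; their part in the Igf1 value was not tested.

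Igf1r, the IGF1 receptor (ENSMUSG00000005533, chromosome 7, 67952827 to 68233668), had more RNA than Insr in every library and was called higher in the library labelled Glut2L in both pairs. It stood at 79.3 FPKM in the Glut2L and 19.5 in the Glut2H library after STZ, a log2 difference of 1.97, and at 70.3 in the Glut2L and 28.2 in the Glut2H library of control mice, a difference of 1.29. Of the genes measured in both pairs, 8.15% were called higher in both, and the deposited intervals of Igf1r overlapped in both pairs. Insr, the insulin receptor (ENSMUSG00000005534, chromosome 8, 3122061 to 3279617), was lower throughout: 8.25 FPKM in the Glut2L and 2.91 in the Glut2H library after STZ, and 3.62 in the Glut2L and 2.45 in the Glut2H library of control mice. It was called higher in the library labelled Glut2L after STZ, with a log2 difference of 1.24 (0.74 with a pseudocount of 5), and not in control mice, where it was 0.42. Igf1r exceeded Insr 9.60-fold in the Glut2L and 6.70-fold in the Glut2H library after STZ, and 19.4-fold in the Glut2L and 11.5-fold in the Glut2H library of control mice. In the Glut2H STZ library the deposited intervals of Igf1r (5.28 to 37.5) and Insr (0.502 to 6.22) overlapped.

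Both receptor substrates had more RNA in the libraries labelled Glut2L, and Irs2 was called higher after STZ. Irs2 (ENSMUSG00000038894, chromosome 8, 10984681 to 11008458) stood at 18.4 FPKM in the Glut2L and 8.44 in the Glut2H library after STZ, a log2 difference of 1.04, and at 17.6 in the Glut2L and 12.6 in the Glut2H library of control mice, a difference of 0.45. The Glut2L values of Irs2 were close to each other, and the Glut2H value was the lower one within each pair. The Irs2 call after STZ was lost with the all-gene median set to 0 and with a pseudocount of 5, both 0.80, and with the 20 highest rows left out of the sum, 0.98. Irs1 (ENSMUSG00000055980, chromosome 1, 82233101 to 82291416), the substrate best known from muscle and fat, was near the lower limit: 1.24 FPKM in the Glut2L and 0.344 in the Glut2H library after STZ, and 1.97 in the Glut2L and 0.523 in the Glut2H library of control mice. Its log2 differences of 0.74 and 0.96 in STZ and control mice were under 2-fold on the FPKM + 1 scale, while the ratio of FPKM was 3.62 after STZ and 3.77 in control mice. With a pseudocount of 0.1 they were 1.598 and 1.733. Both rows overlap an opposite-strand gene. Gm9747, on the strand opposite Irs1, stood at 1.82 FPKM in the Glut2L and 0.634 in the Glut2H library after STZ and 2.24 in the Glut2L and 1.40 in the Glut2H library of control mice, levels like those of Irs1, which is therefore uncertain; the noncoding 9530052E02Rik, opposite Irs2, stayed at or below 3.20. Irs2 exceeded Irs1 in every library, between 8.92-fold (Glut2L control) and 24.5-fold (Glut2H STZ).

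Igfbp3 and Igfbp5, which bind IGFs tightly and also form a circulating complex with the acid-labile subunit, were both called lower in the libraries labelled Glut2L, with intervals apart in both pairs. Igfbp3 (ENSMUSG00000020427, chromosome 11, 7206086 to 7213923) stood at 0.0509 FPKM in the Glut2L and 44.5 in the Glut2H library after STZ, and at 0.968 in the Glut2L and 44.9 in the Glut2H library of control mice, with log2 differences of -5.44 after STZ and -4.55 in control mice. Igfbp5 (ENSMUSG00000026185, chromosome 1, 72857932 to 72874884) stood at 2.34 FPKM in the Glut2L and 26.0 in the Glut2H library after STZ, and at 2.87 in the Glut2L and 19.1 in the Glut2H library of control mice, with differences of -3.01 after STZ and -2.38 in control mice. Of the 14340 genes measured in both pairs, 10.4% were called lower in both. A call of lower with intervals apart was met by 4.15% of all genes after STZ and 4.19% in control mice.

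Igfbp6, which prefers IGF2 over IGF1 (ENSMUSG00000023046, chromosome 15, 102144362 to 102149511), was listed at 0 in both libraries labelled Glut2L, against 4.83 FPKM in the Glut2H STZ and 2.94 in the Glut2H control library. It was called lower in both pairs, by -2.54 after STZ and -1.98 in control mice, and in neither with a pseudocount of 5, at -0.98 and -0.67. A value listed at 0 has bounds of 0, so its interval says nothing on precision. Igfbp2 (ENSMUSG00000039323, chromosome 1, 72824503 to 72852474) was listed at 0 after STZ in both gates, and stood at 0.262 FPKM in the Glut2L and 0.813 in the Glut2H library of control mice. It reached 1 FPKM in no library and entered no comparison. Igfbp2 and Igfbp5 are neighbours, 5457 bases apart on opposite strands, yet Igfbp5 stood at 19.1 FPKM or more in the libraries labelled Glut2H while Igfbp2 stayed below 1.

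Igfbp7, which binds IGFs weakly and is known from vessel walls and extracellular matrix (ENSMUSG00000036256, chromosome 5, 77349240 to 77408041), was the member with the most RNA in every library. It stood at 82.7 FPKM in the Glut2L and 249 in the Glut2H library after STZ, a log2 difference of -1.58, and at 112 in the Glut2L and 211 in the Glut2H library of control mice, a difference of -0.91. Intervals overlapped in both pairs. Its row spans Polr2b on the opposite strand, which stood at 84.8 FPKM in the Glut2L and 51.3 in the Glut2H library after STZ and 94.9 in the Glut2L and 22.9 in the Glut2H library of control mice; no source used here says whether counting used strand, so Igfbp7 is uncertain to that extent. Igfbp7 made up 97.2% of the summed FPKM of the 5 IGFBP members in the Glut2L and 76.8% in the Glut2H library after STZ, and 96.5% in the Glut2L and 75.7% in the Glut2H library of control mice. The IGFBP sum was 1.07 times the Igf1r level in the Glut2L and 16.6 times in the Glut2H library after STZ, and 1.65 times in the Glut2L and 9.91 times in the Glut2H library of control mice.

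Counted together, 3 of the 9 members measured were called higher in the library labelled Glut2L after STZ (Igf1r, Insr and Irs2) and 5 lower (Igf1, Igfbp3, Igfbp5, Igfbp6 and Igfbp7), where 22.9% and 17.8% of all 15839 genes were called higher and lower. In control mice 1 was called higher (Igf1r) and 4 lower (Igf1, Igfbp3, Igfbp5 and Igfbp6), where 19.7% and 18.5% of 16234 genes were. The same 4 were therefore called lower in both pairs, as were 10.4% of the 14340 genes measured in both, and Igf1r was called higher in both, as were 8.15%. The members' median log2 difference was -1.58 after STZ and -0.91 in control mice, beside 0.23 and 0.15 for all genes. All 9 differed in the same direction in both pairs, as did 71.3% of all genes. The pairs share no library. Igfbp3 and Igfbp5 were called lower with intervals apart in both pairs, and Igf1 in control mice; 4.15% and 4.19% of all genes met that rule in STZ and control mice, genes listed at 0 in 1 library included. Igfbp3 and Igfbp6 in both pairs, and Igf1 in control mice, reached 1 FPKM only in the library labelled Glut2H, and Irs1 only in the library labelled Glut2L, so the filter admitted them through the library where they were high.

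**Figure D2:**
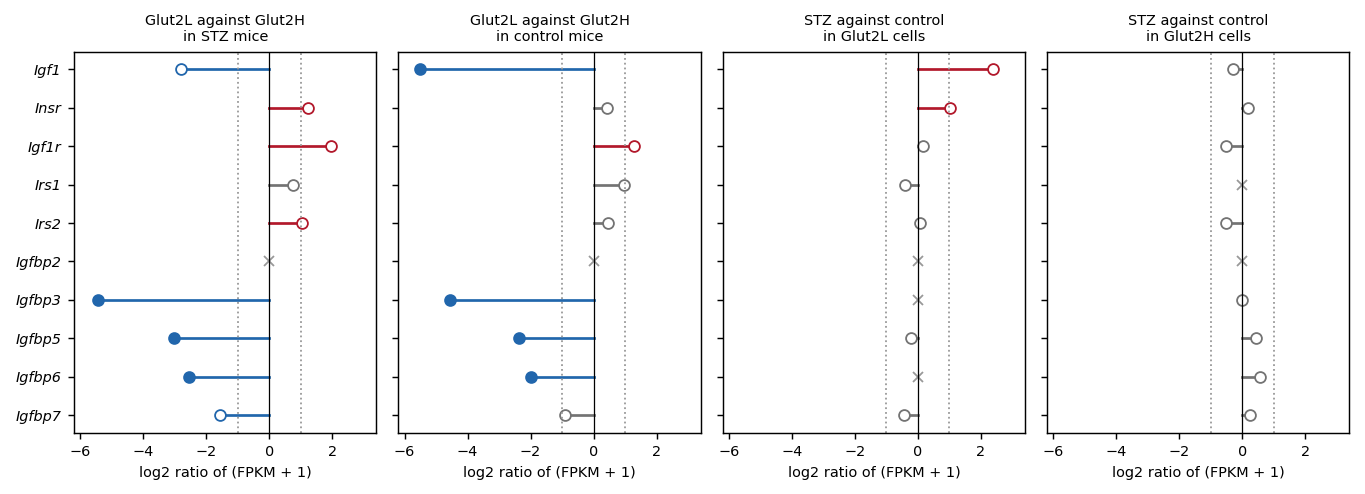
Log2 ratio of (FPKM + 1) of each member in the 4 comparisons; red and blue mark a call of higher and lower, grey a difference under 2-fold (dotted lines), crosses members below 1 FPKM in both libraries, and filled points intervals that do not overlap (for Igfbp6 the Glut2L bounds are 0 because it is listed at 0). Igf1, Igfbp3, Igfbp5 and Igfbp6 lie left of -1 in both gate comparisons, while the STZ comparisons hold calls for Igf1 (2.40) and Insr (1.003) in the libraries labelled Glut2L.

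The comparison of STZ with control within a gate sets cells sorted from diabetic mice beside cells sorted from control mice. A change within cells and a change in which cells were sorted cannot be told apart in it. In the libraries labelled Glut2L, 2 of 7 members measured were called higher after STZ, Igf1 and Insr, and 0 lower, beside 10.2% and 11.1% of all 15602 genes. The filter admitted Igf1 only through the STZ library, and it left out Igfbp3, which was lower after STZ but below 1 FPKM in both libraries. Insr stood at 8.25 FPKM (interval 1.69 to 17.7) in the Glut2L STZ and 3.62 (1.12 to 6.13) in the Glut2L control library, a log2 difference of 1.003 that was at the limit of the call. Of the others, Igf1r differed by 0.17, Irs2 by 0.06, Igfbp5 by -0.21, Irs1 by -0.40 and Igfbp7 by -0.43. In the libraries labelled Glut2H, 0 of 8 were called in either direction, beside 9.62% higher and 13.8% lower of 15558 genes. The values there lay between -0.53 for Irs2 and 0.57 for Igfbp6, and Igfbp3 differed by -0.01. All deposited intervals overlapped between STZ and control in both gates. Markers of other cells also differed in the libraries labelled Glut2L: of the acinar markers 9 of 9 were called lower after STZ, with a median of -3.60 and sums of 334 FPKM in the STZ and 3057 in the control library. There 3 of 8 endothelial and 2 of 8 stromal markers were also called lower, and 1 of 6 alpha cell markers higher, with alpha sums of 9975 in the STZ and 4222 in the control library. In the libraries labelled Glut2H 0 of 9 acinar, 3 of 11 endothelial and 2 of 14 stromal markers were called lower, and 1 stromal marker, Acta2, higher. Their part in the Igf1 and Insr values was not tested.

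Subtracting the STZ effect in the Glut2H libraries from that in the Glut2L libraries gave 2.69 for Igf1, the single member past 2-fold of 9 measured, beside 18.4% of 17732 genes called higher and 15.5% lower. The differences were 0.82 for Insr, 0.68 for Igf1r, 0.59 for Irs2, -0.22 for Irs1, -0.57 for Igfbp6, -0.64 for Igfbp5, -0.67 for Igfbp7 and -0.89 for Igfbp3. Acinar markers had 9 of 9 past 2-fold in the negative direction in the same subtraction, with a median of -3.62. With a pseudocount of 0.1 the Igf1 value was 4.205, and with a pseudocount of 5 it was 1.30. With 1 library per group these differences were not tested.

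The rest of the pathway was read from 8 fixed lists of 68 further genes. A gene below 1 FPKM in 1 library of a pair entered that pair only through the other library, where it was high. After STZ, 12 of the 63 measured were called higher and 9 lower in the library labelled Glut2L (median 0.19), and in control mice 9 and 10 of 61 (median 0.06), shares near those of all genes. With deposited intervals also required not to overlap, 0 higher and 3 lower calls were left after STZ, and 1 and 6 in control mice. Under that rule 0 calls between STZ and control were left in either gate. Among the ligands, Ins2 stood at 175841 FPKM in the Glut2L and 52596 in the Glut2H library after STZ and 294540.0 in the Glut2L and 57345 in the Glut2H library of control mice, and Ins1 likewise was called higher in both pairs. Igf2, the other IGF, stood at 1.04 FPKM in the Glut2L and 1.23 in the Glut2H library after STZ, and at 9.22 in the Glut2L and 0.175 in the Glut2H library of control mice. It was thus called lower after STZ in the libraries labelled Glut2L, with a log2 difference of -2.33. The Igf2 row overlaps its antisense gene Igf2os and Gm49394, so its value is uncertain. Igf2r, a receptor that clears IGF2, stood at 62.1 FPKM in the Glut2L and 21.0 in the Glut2H library after STZ and at 31.2 in the Glut2L and 44.7 in the Glut2H library of control mice, and was called lower after STZ in the libraries labelled Glut2H.

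Several of the genes around the IGFBPs followed the gates. Igfals, the acid-labile subunit that joins IGFBP3 or IGFBP5 complexes, stood at 7.73 FPKM in the Glut2L and 2.93 in the Glut2H library after STZ and 14.3 in the Glut2L and 2.89 in the Glut2H library of control mice, so it was called higher in both pairs while Igfbp3 and Igfbp5 were called lower. Htra1, a secreted protease that cleaves IGFBPs, was listed at 0 in the Glut2L STZ library, against 6.04 in the Glut2H STZ library, and stood at 0.293 in the Glut2L and 13.0 in the Glut2H library of control mice. Stc1, a secreted stanniocalcin, stood at 0.340 in the Glut2L and 5.85 in the Glut2H library after STZ and at 0.432 in the Glut2L and 6.31 in the Glut2H library of control mice. Pappa2, a protease of IGFBP3 and IGFBP5, was called higher after STZ in both gates, at 13.3 FPKM in the Glut2L STZ against 5.93 in the Glut2L control library and 17.4 in the Glut2H STZ against 7.45 in the Glut2H control library. Igfbp4 was called lower after STZ in the libraries labelled Glut2H, at 1.03 FPKM in the STZ and 9.12 in the control library.

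Of the 10 PI3K and AKT genes, 1 was called higher and 1 lower in the library labelled Glut2L in each pair. The lower one was Pik3cd, the delta catalytic subunit found mainly in leukocytes, at 2.13 FPKM in the Glut2L and 17.4 in the Glut2H library after STZ and 0.418 in the Glut2L and 48.3 in the Glut2H library of control mice. Inpp5d, a lipid phosphatase of blood cells that opposes PI3K, went the same way, at 2.67 in the Glut2L and 67.1 in the Glut2H library after STZ and 0.563 in the Glut2L and 57.4 in the Glut2H library of control mice. Both were also called higher after STZ in the libraries labelled Glut2L, Pik3cd by 1.14 and Inpp5d by 1.23 on the log2 scale. The filter admitted both to that comparison only through the STZ library, where they were high. In those labelled Glut2H, Pik3cd was called lower after STZ, by -1.42, and Inpp5d differed by 0.22. Pik3cd and Inpp5d stand beside the leukocyte marker sums given above, and the part of leukocytes in them was not tested. Dok1, a docking protein that dampens tyrosine kinase signals, was likewise called lower in both pairs, at 0.799 in the Glut2L and 21.0 in the Glut2H library after STZ and 2.29 in the Glut2L and 18.4 in the Glut2H library of control mice. Akt1 and Akt2, kinases that act downstream of PI3K, were called in neither pair. Pik3r2, a regulatory subunit of PI3K, was called higher after STZ in the libraries labelled Glut2L, at 25.5 FPKM in the STZ and 11.0 in the control library.

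Among the brakes on the pathway, Socs3, a feedback inhibitor of insulin and cytokine receptors, stood at 100.4 FPKM in the Glut2L and 8.23 in the Glut2H library after STZ and at 208 in the Glut2L and 47.3 in the Glut2H library of control mice. It was thus called higher in the library labelled Glut2L in both pairs, and called lower after STZ in both gates. Trib3, a pseudokinase that binds AKT, stood at 51.5 in the Glut2L and 16.4 in the Glut2H library after STZ and 39.5 in the Glut2L and 14.1 in the Glut2H library of control mice. Deptor, an inhibitor of mTOR, was also called higher in both pairs, at 19.7 in the Glut2L and 8.17 in the Glut2H library after STZ and 18.1 in the Glut2L and 7.37 in the Glut2H library of control mice. Grb10, an adaptor that restrains INSR and IGF1R, was called higher after STZ in the libraries labelled Glut2L, at 29.5 FPKM in the STZ and 10.2 in the control library. Pik3ip1, an inhibitor of PI3K, was at 12.4 in the Glut2L STZ and 3.63 in the Glut2L control library, and at 0.663 in the Glut2H STZ and 4.06 in the Glut2H control library, a call in each gate in opposite directions. Socs1, a relative of Socs3, was called lower in the library labelled Glut2L in both pairs, at 2.12 in the Glut2L and 5.30 in the Glut2H library after STZ and 1.31 in the Glut2L and 15.9 in the Glut2H library of control mice. Phlpp1, a phosphatase of AKT, was called higher after STZ in the libraries labelled Glut2H, at 12.4 in the STZ and 5.55 in the control library. The change was nearly the same in those labelled Glut2L, at 10.6 in the STZ and 4.91 in the control library. The log2 differences were 1.03 in Glut2H and 0.98, just under the call, in Glut2L.

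Of the 12 mTOR genes, 1 was called higher after STZ in the libraries labelled Glut2L and 2 in those labelled Glut2H, and of the 6 FoxO and GSK3 genes 1 and 0, with 0 called lower in either list. In the libraries labelled Glut2H, Mtor, the kinase itself, stood at 14.6 FPKM in the STZ and 3.75 in the control library, and Rheb, its activator, at 73.4 in the STZ and 32.9 in the control library. In the libraries labelled Glut2L, Mlst8, a subunit of both mTOR complexes, stood at 5.76 in the STZ and 2.05 in the control library, and Foxo4, a transcription factor restrained by AKT, at 8.27 in the STZ and 1.81 in the control library. Over all 8 lists, 8 of 59 genes measured in the libraries labelled Glut2L were called higher after STZ and 2 lower, beside 10.2% and 11.1% of all genes. In those labelled Glut2H 4 of 63 were called higher and 6 lower, beside 9.62% and 13.8%.

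**Figure D3:**
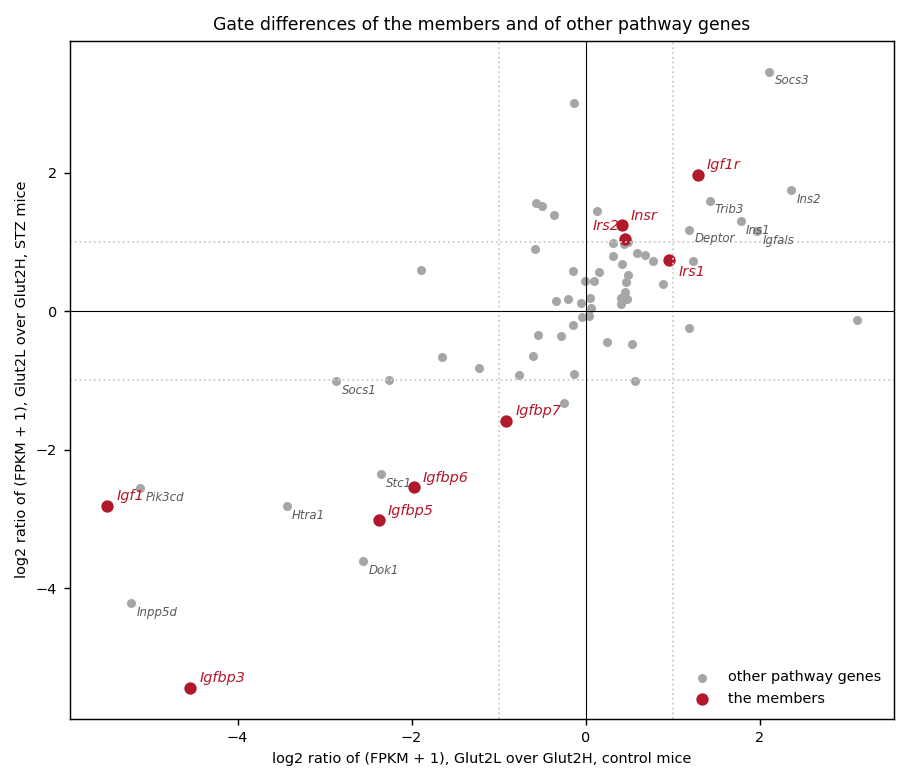
Log2 ratio of (FPKM + 1), Glut2L over Glut2H, in control mice (horizontal) and STZ mice (vertical) for the 9 members measured in both pairs (red) and the other pathway genes (grey, named where called the same way in both pairs and at 5 FPKM or more). Igf1r lies at 1.29 and 1.97, and Igfbp3 at -4.55 and -5.44; dotted lines mark 2-fold.

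Other protein-coding genes were ranked by how alike their pattern was, as the Euclidean distance of mean-centred log2(FPKM + 1) over the 4 libraries, among 10126 genes that reached 5 FPKM. Among the 3 nearest to Igf1 were the chemokine gene Ccl9 (0.31) and Ass1, an enzyme of arginine synthesis (0.44). Ccl9 stood at 7.34 FPKM in the Glut2L and 58.1 in the Glut2H library after STZ and at 0.525 in the Glut2L and 89.4 in the Glut2H library of control mice. The nearest to Igf1r were Bicd1 (0.05), Gpr158 (0.10) and Bckdha (0.13), and the nearest to Irs2 were Cxxc1 (0.03), Prcc (0.06) and Usp53 (0.07). Those nearest to Insr were Ift140 (0.06), Cyp4f13 (0.08) and Cox16 (0.10). The distances rest on 4 libraries and describe them alone.

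The scale of the libraries bears on each gate value, because FPKM sums differed between the gates. Rescaling to an equal sum over all rows moved the median of all genes by 0.95 after STZ and 0.72 in control mice, towards the library labelled Glut2L, whereas leaving the 20 highest rows, mitochondrial genes and short loci out of the sum moved it by -0.05 and -0.03. The direction of all 9 measured members was the same in both pairs under the deposited scale and the 3 others. Over them, Igf1r lay between 1.73 and 3.07 after STZ and between 1.14 and 2.10 in control mice, Igfbp3 between -5.67 and -4.90 after STZ and between -4.69 and -3.97 in control mice, and Igfbp5 between -3.25 and -2.06 after STZ and between -2.53 and -1.69 in control mice. A scaling moves all genes nearly alike, and for Igfbp7 it decided the call: Igfbp7 lay between -1.81 and -0.45 after STZ and between -1.06 and -0.09 in control mice. In that equal-sum rescaling Insr, Irs1 and Irs2 passed 2-fold in control mice, at 1.06, 1.43 and 1.23, beside an all-gene median of 0.87 there, and 78.6% of all calls were then higher, against 51.6% as deposited. After STZ the share was 85.6%, against 56.4% as deposited. Centred on the all-gene median it was 43.1% after STZ and 43.0% in control mice.

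**Figure D4:**
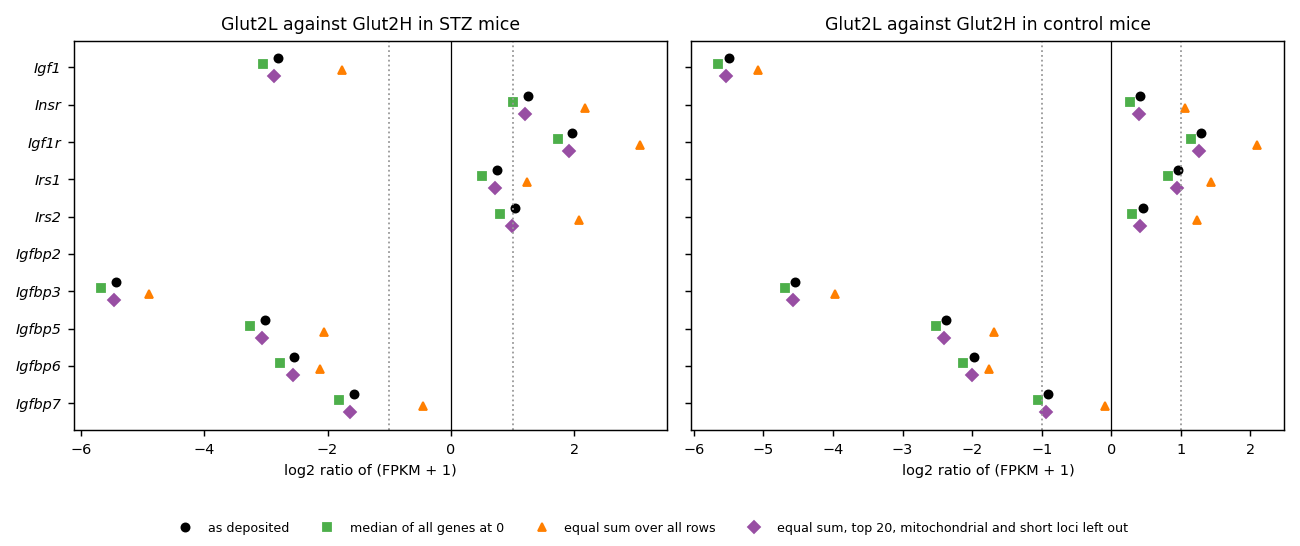
Log2 ratio of (FPKM + 1), Glut2L over Glut2H, of the members under the deposited scale and 3 other scalings, in STZ mice (left) and control mice (right); dotted lines mark 2-fold, and Igfbp2 was below 1 FPKM. Igf1, Igfbp3, Igfbp5 and Igfbp6 stay below -1 and Igf1r above 1 under each scaling, while Igfbp7 ranges between -1.06 and -0.09 in control mice.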

How the data were processed

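For 4 sorted populations of islet cells, 1 stranded total RNA library each was made after ribosomal RNA removal, per the labels' protocols. TopHat2, SAMtools and Cuffdiff were run on GRCm38 (mm10), per the submitters' processing notes; no source used here gives versions, annotation, strand setting or library normalization. The deposited values are FPKM with an interval on the same signal scale and a status per gene, per the file headers; read depth is unknown. The single-sample tables held the same FPKM (0 of 156680 values differed).

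Libraries were grouped as labelled. Log2(FPKM + 1) differences were computed with Python 3.11.15, pandas 2.3.3 and NumPy 2.4.6 over genes at 1 FPKM or more in at least 1 library of the pair and OK in status, and called at 2-fold; 1 library per group allows no test. The calling step was tested on simulated data. Positions are from GENCODE M21 by Ensembl ID. Named beyond the members were pathway genes at 5 FPKM or more called alike in both gate pairs or in an STZ comparison (up to 4 per list and comparison), and the 3 nearest genes of 4 members, of which 1 is not reported here. Members and lists were chosen with earlier results of these data known. Alternatives were 2 pseudocounts, 2 filters, 3 scalings, non-overlapping intervals and the single-sample tables.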

Additional observations from a re-analysis of the deposited data

Results flagged for a closer look

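For Igf1, Igf1r, Irs2, Igfbp5 and Igfbp7 the STZ difference had opposite directions in the libraries labelled Glut2L and Glut2H. The share of all genes with opposite directions was not computed, so this is not a result about the members. Some values were small: Igf1r differed by 0.17 in Glut2L and -0.51 in Glut2H, and Irs2 by 0.06 and -0.53. With 1 library per group the difference between the gates was not tested. It was 2.69 on the log2 scale for Igf1, 0.68 for Igf1r and 0.59 for Irs2, and it was -0.64 for Igfbp5 and -0.67 for Igfbp7. Of these, Igf1 alone passed 2-fold in either gate.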

How the results depend on the processing

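Of 210 log2 values of members recomputed under 2 pseudocounts and 3 scalings, 191 kept their side of 2-fold, 19 crossed it and 0 called values changed sign; the other filters and the single-sample tables cannot move a value. The interval rule ended 8 calls without moving a value; all member levels stayed within their deposited intervals under both rescalings. Counts that moved by over 1.5 times are given as members, then other pathway genes. With intervals required not to overlap, the gate pair after STZ kept 0 members higher and 3 lower (Igfbp6, with no informative interval, among them) and 0 pathway genes higher and 3 lower, and the control pair 0 members higher and 1 pathway gene higher and 6 lower; STZ against control kept 0 members and 0 pathway genes in either direction in both gates. With an equal sum over all rows, the STZ pair had 39 pathway genes higher and 5 lower, the control pair 4 members and 27 pathway genes higher; STZ effects were 1 pathway gene higher in Glut2H, 1 member and 1 pathway gene lower in Glut2L, and for their difference 2 members higher and 3 pathway genes lower. A pseudocount of 0.1 gave 2 members higher in the control pair, 7 pathway genes higher and 10 lower after STZ in Glut2H, 4 lower in Glut2L, and 1 member lower for the difference (Igfbp3, -2.81). A pseudocount of 5 gave 1 member higher in the STZ gate pair, 2 pathway genes higher after STZ in Glut2H, 1 member and 2 pathway genes higher in Glut2L, and 7 pathway genes higher and 3 lower for the difference. The STZ effect of Insr in Glut2L, 1.003 as deposited, was 0.999 with the median of all genes at 0 and 0.97 with the 20 highest rows left out, leaving 1 member higher under each. The cause of these moves was not tested, and unknown read depth limits every value below 1 FPKM. No paired analysis was possible because each group holds 1 library and the labels give no replicate numbers.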
